A study of Homo sapiens with 6 samples.

Results

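The 42 genes examined here act in G2 and mitosis: cyclins and CDK1, mitotic kinases, the spindle checkpoint, the kinetochore, kinesins and the machinery of cytokinesis. They were chosen by name, as probes whose platform gene symbol is one of the 42, and make up 67 of the 47231 probes of the Illumina HT-12 v4 BeadChip and 42 of the 20046 genes with a named probe. The cells were HEK-293T, derived from human embryonic kidney and carrying the SV40 large T antigen, and their total RNA was hybridized to 3 arrays for RUNX1 overexpression and to 3 for the control named MCS. The RUNX1 group received a lentivirus that expresses RUNX1, and the MCS group its control lentivirus, a mock control in the labels. Both groups were transduced at 10 MOI, selected with 1 µg/ml puromycin and harvested 7 days after transduction, so the control cells also carry a virus and its selection marker. The purpose given for the arrays was to see whether RUNX1 affects these cells.

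In proliferating cells, transcripts of this kind are low in early G1 and accumulate from the end of S phase. Cyclin A and cyclin B then activate CDK1, Aurora and Polo-like kinases build the spindle, and the spindle checkpoint holds back the anaphase-promoting complex until every kinetochore is attached. Many of their promoters share a short element, the cell cycle genes homology region (CHR), through which the DREAM complex represses them early in the cycle and MYBL2 and FOXM1 activate them later, and CCAAT boxes bound by NF-Y. In RNA from whole cultures, fewer cells in G2 or mitosis and less RNA per cell cannot be told apart.

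The promoters show what many of these genes share beyond their names. Of the 42 members, 35 were matched to a RefSeq promoter (GRCh38.p14, 250 bases before to 50 after the start), and FOXM1, AURKA, TTK, BIRC5, BUB3, UBE2C and TPX2 were not matched. The CHR hexamer TTTGAA, searched on both strands, was found in 25 of the 35 (71.4%), against 15.6% of all 27305 promoters of the same length and 10.1% of the 8963 whose genes were tested on the arrays. The pentamer CCAAT, also on both strands, was found in 28 of 35 (80%), against 35.6% of all promoters. Both stood together in 21 members (60.0%), against 6.15% of all promoters. The hexamer TGTGGT, the core of RUNX sites, was found on either strand in 2 of 35 members (5.71%), PTTG1 and ANLN. It was found in 13.2% of all promoters and in 9.18% of those whose genes were tested. These are matches of letters and not sites that a factor was shown to bind.

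Stretches of 120 bases that end at the RefSeq start are shown for 8 members, because they carry these elements or belong to genes whose array values are described below. Each is written 5′ to 3′ on the strand of its gene, with the CHR hexamers, CCAAT boxes and RUNX hexamers searched for above, on either strand, in capitals.
CCNB2, chr15:59105026-59105145, plus strand: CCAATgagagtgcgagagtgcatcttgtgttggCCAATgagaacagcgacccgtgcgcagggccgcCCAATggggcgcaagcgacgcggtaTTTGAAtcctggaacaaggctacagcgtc
PLK1, chr16:23678769-23678888, plus strand: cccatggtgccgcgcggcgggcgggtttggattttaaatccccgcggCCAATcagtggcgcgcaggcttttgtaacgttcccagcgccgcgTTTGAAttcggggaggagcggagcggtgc
CDC25C, chr5:138331805-138331924, minus strand: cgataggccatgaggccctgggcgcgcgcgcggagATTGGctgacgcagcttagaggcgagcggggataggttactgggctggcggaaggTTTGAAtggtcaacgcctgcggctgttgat
CDC20, chr1:43358861-43358980, plus strand: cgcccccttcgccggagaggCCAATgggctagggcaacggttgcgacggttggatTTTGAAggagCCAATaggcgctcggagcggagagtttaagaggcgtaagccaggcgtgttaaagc
CKS2, chr9:89311075-89311194, plus strand: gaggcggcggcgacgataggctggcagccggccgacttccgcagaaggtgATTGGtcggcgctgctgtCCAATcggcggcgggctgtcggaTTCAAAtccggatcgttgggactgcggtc
ANLN, chr7:36389742-36389861, plus strand: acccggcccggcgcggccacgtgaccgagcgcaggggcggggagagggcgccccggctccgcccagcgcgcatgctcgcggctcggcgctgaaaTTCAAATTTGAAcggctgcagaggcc
BUB1, chr2:110678064-110678183, minus strand: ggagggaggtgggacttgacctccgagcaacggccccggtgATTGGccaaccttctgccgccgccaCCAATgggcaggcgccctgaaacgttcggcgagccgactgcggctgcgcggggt
PTTG1, chr5:160421735-160421854, plus strand: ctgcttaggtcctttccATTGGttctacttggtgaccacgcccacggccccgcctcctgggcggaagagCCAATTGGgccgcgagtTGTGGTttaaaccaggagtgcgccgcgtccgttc

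In CCNB2, PLK1, CDC25C and CKS2 the CHR hexamer lay just before the start with CCAAT boxes farther upstream. In 13 of the 35 members a CHR hexamer began 18 to 34 bases before the start (37.1%), a span chosen after the matches were seen, against 1.07% of all promoters. In ANLN a match on each strand stood side by side, and in CDC20 the hexamer lay between a pair of CCAAT boxes. In PTTG1 the boxes on opposite strands overlapped in CCAATTGG. BUB1 had CCAAT boxes and no TTTGAA in the 300 bases, where TTCGAA, a variant of the element, began 1 base after the first transcribed base.

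**Figure D1:**
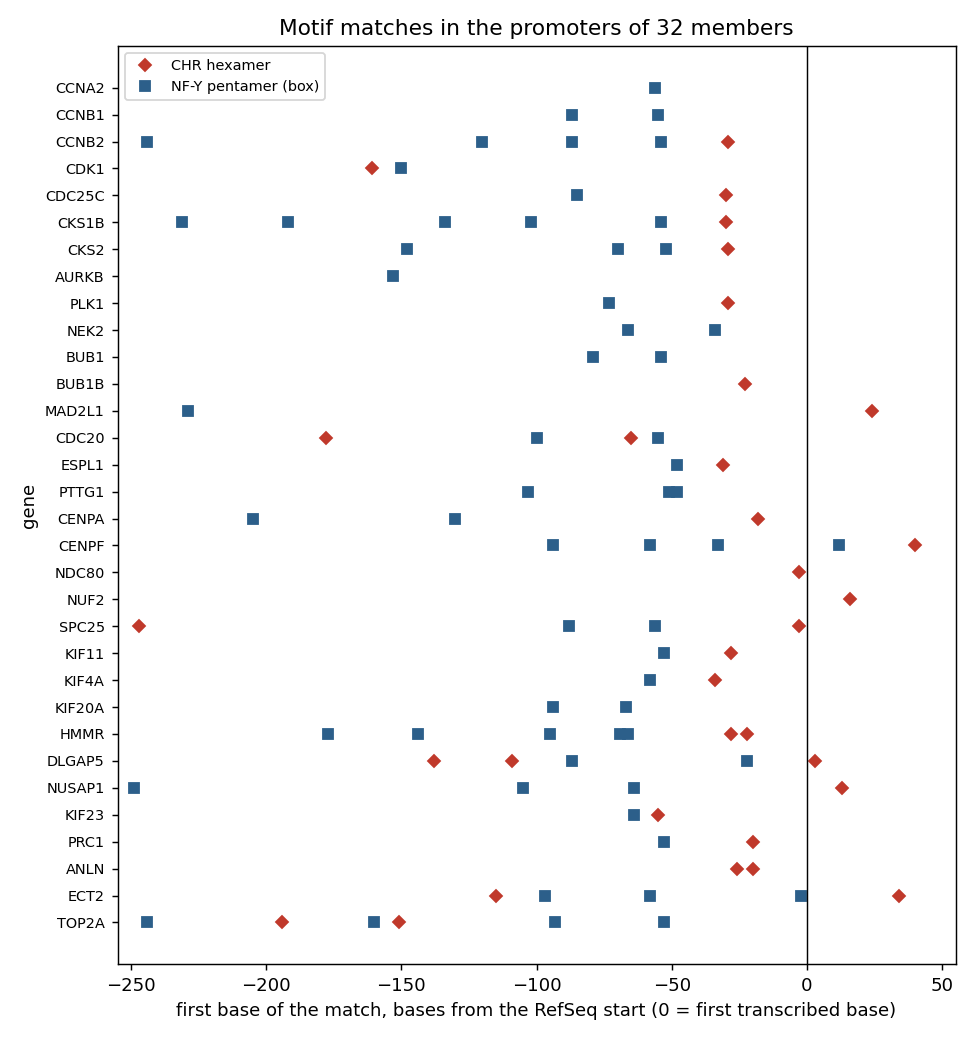
Matches to the CHR hexamer (red diamonds) and the NF-Y box (blue squares) in the promoters of the 32 members with either motif; the horizontal axis gives the first base of the match in bases from the RefSeq start. In 13 members a CHR match begins 18 to 34 bases before the start, and in others, such as CDK1, ECT2 and TOP2A, CHR matches lie farther upstream than some of the boxes.

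Across the arrays, detection (p under 0.05) was reached by 18096 to 19321 probes with RUNX1 and 18405 to 19080 with MCS. Expression values are log2 of background-corrected, quantile-normalized intensities, and 11129 genes were tested. None of the 3 RUNX1 probes was detected on a RUNX1 array, and 1 of their 18 signals passed on an MCS array, so the arrays do not check the overexpression. Of 12 HEK293T marker genes with a probe, 9 were measured, VIM and the neurofilament genes NEFL and NEFM among them, but PAX2, PAX8 and KRT19 were not detected. Of 11 blood cell markers 4 were measured, CD34, CD14, SPN and CSF1R, and PTPRC was detected on no array. Of 11 fibroblast and endothelial markers 2 were measured, COL1A1 on 4 arrays and LUM on 3. The first principal component, with 66.7% of the variance, did not follow the transduction. On it RUNX1 replicates 1 and 2 and MCS replicate 1 had scores of -25.6 to -21.1, and RUNX1 replicate 3 and MCS replicates 2 and 3 had scores of 15.02 to 26.6.

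All 42 members were expressed: each had a probe detected on all 6 arrays, and 65 of their 67 probes passed the filter of detection on at least 3 arrays. The exceptions were a BUB3 probe and a NUF2 probe, each detected on 0 arrays beside other probes of the same gene that passed. No member was called different between RUNX1-overexpressing and MCS-transduced cells. With limma at an adjusted p under 0.05 over all genes, 0 of 42 members were higher and 0 were lower, against 0 of all 11129 genes (0%). At an unadjusted p under 0.05 there was 1 member, BUB1, beside 2.26% of all genes. The methods name an unpaired t-test, but none for the arrays in particular. Applied here, it gave 3 members, BUB1, AURKB and NDC80, at an unadjusted p under 0.05, beside 3.23% of all genes. After adjustment it gave 0 members, beside 0% of all genes.

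The differences were also bounded. Over the 42 members, the log2 difference (RUNX1 minus MCS) lay between -0.20 and 0.34. The 95% confidence interval excluded a 2-fold change in either direction for 42 of 42 members, as it did for 92.4% of all genes tested. The most extreme limits were -0.84 for PTTG1 and 0.76 for CKS2. For CKS2, PTTG1 and CENPE this bound depended on the fit. By the methods' t-test the interval of CKS2 was -1.08 to 1.12, and the lower limits reached -1.16 for PTTG1 and -1.02 for CENPE. The other 39 members stayed inside under all 20 alternatives. Leaving out RUNX1 replicate 1 or 2 or MCS replicate 2 or 3 moved the upper limit of CKS2 to between 1.00 and 1.03, and leaving out RUNX1 replicate 3 or MCS replicate 1 moved the lower limit of PTTG1 to -1.01 or -1.05.

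**Figure D2:**
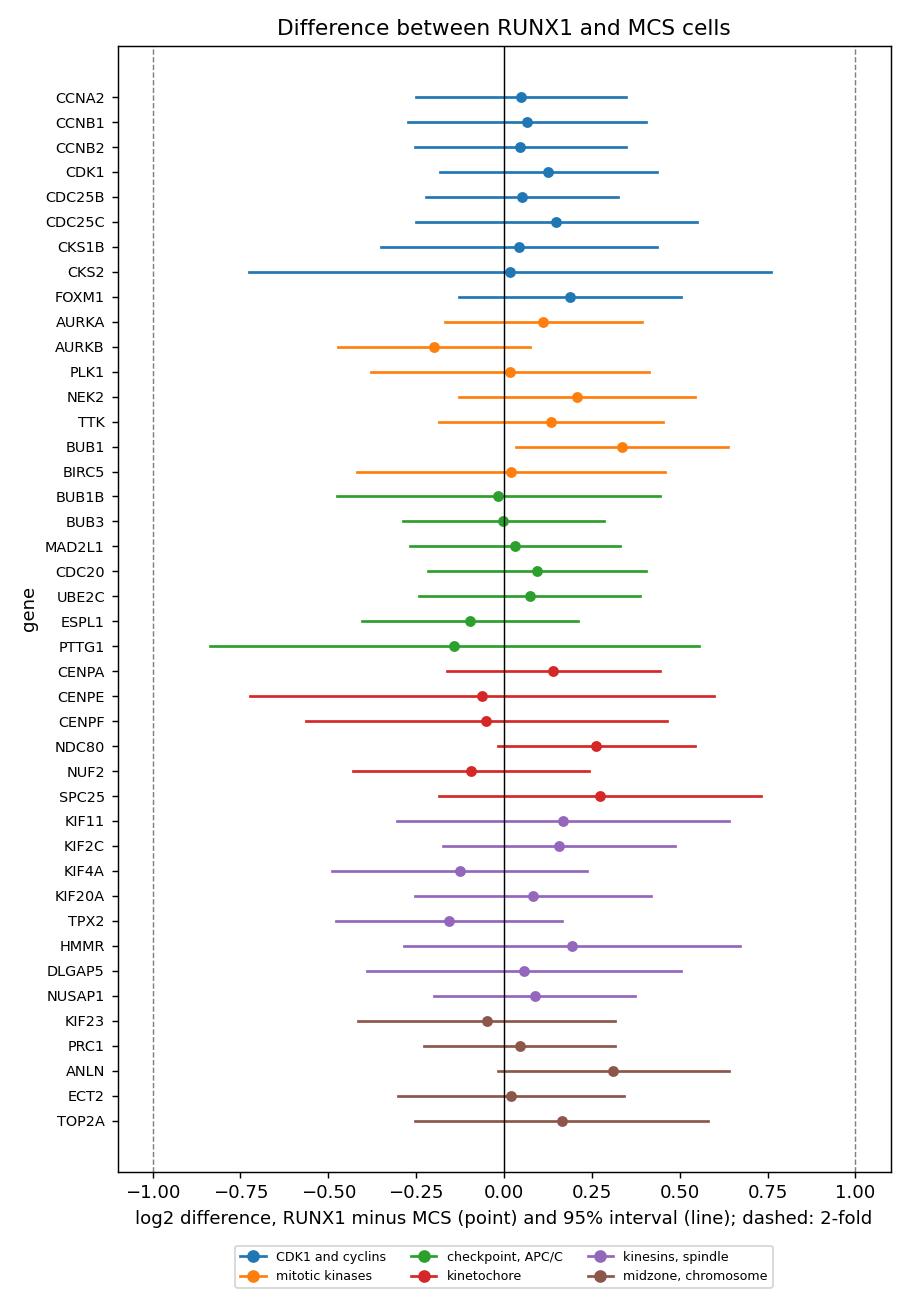
Log2 difference, RUNX1 minus MCS, of each of the 42 genes (point) with its 95% confidence interval from limma (line), coloured by role; dashed lines mark a 2-fold change. All 42 intervals lie inside the dashed lines, 41 include 0, and BUB1 is the exception.

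The range of the log2 value over 6 arrays was 0.15 to 1.13 with a median of 0.41 for the members, beside a median of 0.56 for all genes tested. Differences were above 0 for 31 members and below 0 for 11, and below 0 for 44.6% of all genes, with a median of 0.054 for the members and 0.021 for all genes. Without normalization between arrays these medians were -0.11 and -0.17, so the direction of the members' median flips with that scaling, while it lay above that of all genes on both. Differences of single members are read on the normalized values.

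Cyclins, CDK1 and its activators came first in the pathway, and 0 of these 9 genes passed the test. FOXM1, the transcription factor that drives late cell cycle genes, was at 8.42, 8.36 and 8.17 on RUNX1 replicates 1 to 3, against 8.15, 8.003 and 8.24 on MCS replicates 1 to 3. The RUNX1 arrays were mostly the higher ones, but RUNX1 replicate 3 lay below MCS replicate 3, and the difference was 0.19 (standard error 0.13, 95% interval -0.13 to 0.50). A dimmer FOXM1 probe, designed on another transcript, had a difference of -0.10. CDK1, the kinase that starts mitosis, was at 11.33, 11.09 and 11.40 in RUNX1 cells, against 11.15, 11.14 and 11.15 in MCS cells. Its MCS values were nearly equal and RUNX1 replicate 2 lay below all of them, with a difference of 0.13 (standard error 0.13). CDC25C, a phosphatase that activates CDK1, was at 9.86, 9.83 and 9.40 in RUNX1 cells, against 9.69, 9.39 and 9.55 in MCS cells.

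The cyclins CCNA2, CCNB1 and CCNB2 had differences of 0.049, 0.066 and 0.046, and their values spread over 0.26, 0.36 and 0.21 log2 units on the 6 arrays. CDC25B, another CDK1-activating phosphatase, had a difference of 0.051. CKS2, a small subunit that binds CDK1, was the least steady of the 42, at 13.25, 13.09 and 13.73 in RUNX1 cells, against 12.66, 13.57 and 13.79 in MCS cells. Both groups held high and low arrays, MCS replicate 1 being lowest, and the difference was 0.016 (95% interval -0.73 to 0.76). Its other probe had the same 3 highest arrays, at 12.73, 12.74 and 13.54 in RUNX1 cells and 12.56, 13.14 and 13.41 in MCS cells. CKS1B, a close paralog, had a difference of 0.044 and ranged over 0.47, and cross-hybridization between probes of these paralogs was not tested.

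Among the 7 mitotic kinase genes, with the kinase partner BIRC5 counted among them, the groups did not overlap for BUB1 and AURKB. Over all 42 members this was the case for 4 (9.52%), BUB1, NDC80, ANLN and AURKB, beside 6.56% of all genes tested. BUB1, a checkpoint kinase at kinetochores, was at 10.27, 10.03 and 10.03 in RUNX1 cells, against 9.78, 9.83 and 9.71 in MCS cells. Each RUNX1 array was above each MCS array. The difference was 0.34 (standard error 0.13), a fold of 1.26 with a 95% interval of 1.02 to 1.56, with an unadjusted p of 0.0337 and an adjusted p of 1.00 from limma. AURKB, the kinase of the chromosomal passenger complex, was at 11.40, 11.40 and 11.47 in RUNX1 cells, against 11.67, 11.55 and 11.66 in MCS cells. Here each RUNX1 array was below each MCS array, with a difference of -0.20 (standard error 0.12) and an adjusted p of 1.00 from limma. For either gene the two-sided exact permutation p was 0.1, the smallest that 3 arrays against 3 allow.

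The other kinases overlapped between the groups. NEK2, which separates centrosomes, was at 8.72, 8.59 and 8.95 in RUNX1 cells, against 8.50, 8.49 and 8.65 in MCS cells, and only RUNX1 replicate 2 lay below an MCS array. Its second probe had a difference of 0.093, smaller than the 0.21 of the brightest. TTK, a checkpoint kinase, AURKA, the centrosomal Aurora kinase, and PLK1, which acts at most steps of mitosis, had differences of 0.13, 0.11 and 0.017. BIRC5, which anchors AURKB at centromeres, was highest on replicate 3 of each group, at 10.26 for RUNX1 and 10.07 for MCS, with a difference of 0.021.

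**Figure D3:**
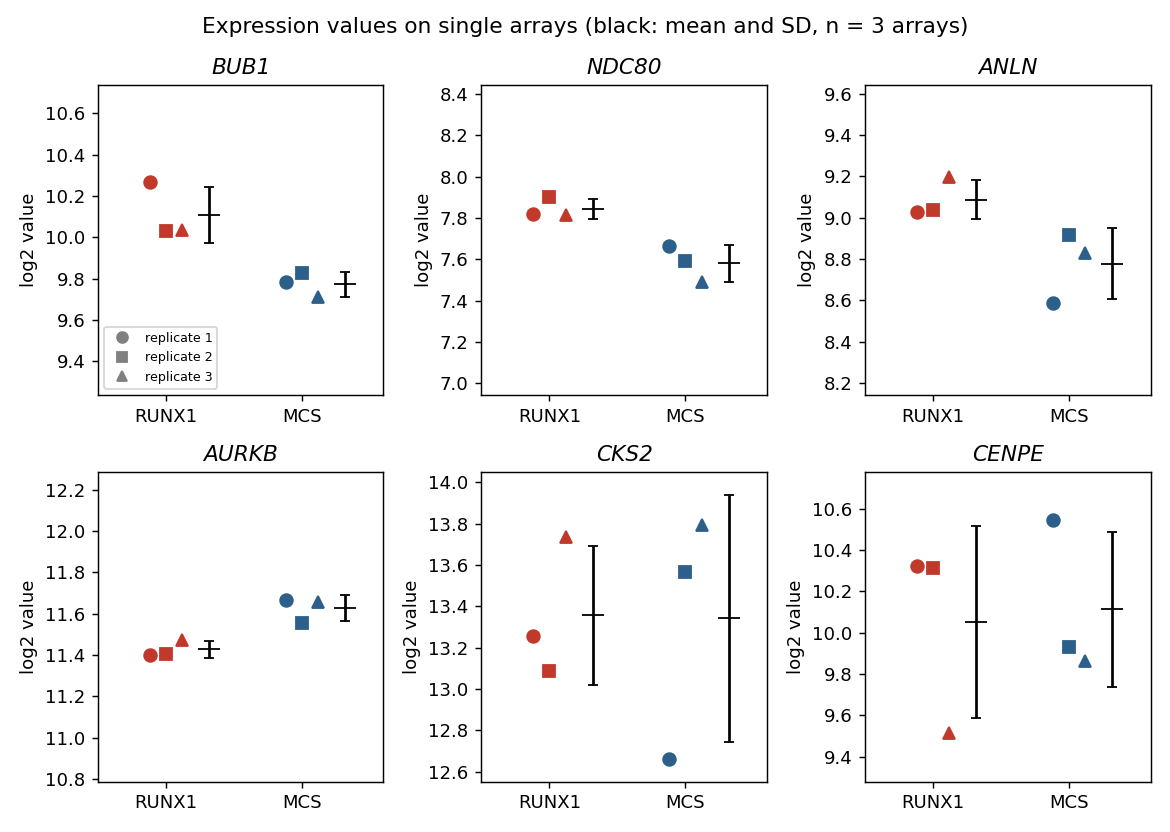
Log2 expression values of 6 genes on single arrays (red, RUNX1; blue, MCS; symbols, replicate numbers), with the mean and SD of each group of 3 arrays in black; each panel spans the same log2 width. BUB1, NDC80 and ANLN are higher and AURKB is lower on every RUNX1 array, while for CKS2 and CENPE arrays of both groups mix and spread over 1.13 and 1.03.

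Of the 7 genes of the spindle checkpoint, the anaphase-promoting complex and separase, 0 passed the test and the median difference was -0.0018. CDC20, the activator of the anaphase-promoting complex, was at 12.72, 12.63 and 12.76 in RUNX1 cells, against 12.69, 12.44 and 12.71 in MCS cells. MCS replicate 2 was the low array, and the other 5 lay within 12.63 to 12.76. The difference, 0.093, was 0.0059 without that array. UBE2C, the ubiquitin-conjugating enzyme of that complex, was at 12.76, 12.76 and 12.97 in RUNX1 cells, against 12.68, 12.69 and 12.90 in MCS cells. ESPL1, the protease separase that cuts cohesin, was at 8.13, 8.02 and 8.11 in RUNX1 cells, against 8.32, 8.03 and 8.20 in MCS cells, which overlapped.

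BUB3 and MAD2L1, partners in the checkpoint complex, had differences of -0.0018 and 0.032 and ranged over 0.19 and 0.26 log2 units. BUB3 was at 13.48, 13.43 and 13.40 in RUNX1 cells, against 13.56, 13.37 and 13.38 in MCS cells, and MAD2L1 at 12.48, 12.50 and 12.44 in RUNX1 cells, against 12.54, 12.50 and 12.29 in MCS cells. BUB1B, the checkpoint protein BubR1, had a difference of -0.016, and RUNX1 replicate 1 was its low array, at 5.77 beside 6.12 to 6.48 elsewhere. PTTG1, the securin that holds separase inactive, had high and low arrays in both groups. It was at 12.58, 12.58 and 13.39 in RUNX1 cells, against 12.50, 13.13 and 13.34 in MCS cells, and its second probe had the same 3 low arrays, RUNX1 replicates 1 and 2 and MCS replicate 1.

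At the kinetochore, 0 of 6 genes passed the test, and the subunits of the Ndc80 complex, which binds microtubules, had differences of both signs. NDC80 was at 7.82, 7.90 and 7.81 in RUNX1 cells, against 7.67, 7.59 and 7.49 in MCS cells. Each RUNX1 array was above each MCS array, with a difference of 0.26 (standard error 0.12), an unadjusted p of 0.0627 and an adjusted p of 1.00 from limma. SPC25 was at 9.29, 9.42 and 9.17 in RUNX1 cells, against 9.43, 8.83 and 8.81 in MCS cells. Of these MCS arrays, replicate 1 was above the RUNX1 values and the others below them, with a difference of 0.27 (standard error 0.20). It was the only member called under any alternative, the fit with arrays weighted by their quality. The weights were 1.42, 2.46 and 0.279 for RUNX1 replicates 1 to 3, and 0.314, 4.20 and 0.778 for MCS replicates 1 to 3. With them the difference of SPC25 was 0.50 with an adjusted p of 0.0468 from limma. That fit called 897 of all 11129 genes (8.06%), 4.61% higher, and 1 of the 42 members, and without such weights the adjusted p of SPC25 was 1.00. Its difference was 0.48 without MCS replicate 1 and 0.17 without MCS replicate 3. A second, dim SPC25 probe was detected on 3 RUNX1 arrays and 1 MCS array, so it passed the filter through the group where it was high. It was at 5.85, 6.57 and 5.84 in RUNX1 cells, against 5.72, 5.13 and 5.46 in MCS cells. That these values did not overlap is therefore not separate support for a difference.

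NUF2 was at 8.62, 8.83 and 8.68 in RUNX1 cells, against 8.94, 8.60 and 8.86 in MCS cells, a difference of -0.093. Its other detected probe pointed the opposite way, at 7.95, 7.93 and 8.04 in RUNX1 cells, against 7.67, 7.75 and 7.75 in MCS cells, a difference of 0.25 without overlap. SPC24, the fourth subunit and not one of the 42, had a difference of 0.10 (standard error 0.15). CENPA, the histone that marks centromeres, was at 9.77, 9.82 and 9.90 in RUNX1 cells, against 9.80, 9.53 and 9.73 in MCS cells. CENPE, a kinetochore motor, was at 10.33, 10.31 and 9.51 in RUNX1 cells, against 10.55, 9.93 and 9.86 in MCS cells. Its RUNX1 replicate 3 was the lowest array and its MCS replicate 1 the highest, and CENPF, a large kinetochore protein, had the same lowest and highest arrays, at 9.13 and 9.83.

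Of 8 kinesin and spindle genes, 0 passed the test. KIF2C, which takes microtubules apart, was at 10.49, 10.33 and 10.60 in RUNX1 cells, against 10.17, 10.32 and 10.46 in MCS cells, and the groups overlapped. TPX2, the activator of AURKA, was at 10.30, 10.03 and 9.95 in RUNX1 cells, against 10.22, 10.27 and 10.26 in MCS cells. RUNX1 replicate 1 was above all MCS arrays and the other RUNX1 arrays below them, with a difference of -0.16 (standard error 0.14). HMMR, a spindle protein, was at 11.34, 11.36 and 10.78 in RUNX1 cells, against 11.18, 10.99 and 10.73 in MCS cells, where replicate 3 of both groups was low. Its difference was 0.38 without RUNX1 replicate 3 and 0.073 without MCS replicate 3. The motor KIF11 had the same arrays low, at 9.49 for RUNX1 and 9.39 for MCS, and its difference was 0.34 without RUNX1 replicate 3 and 0.031 without MCS replicate 3. NUSAP1, which bundles spindle microtubules, was at 12.46, 12.51 and 12.62 in RUNX1 cells, against 12.37, 12.43 and 12.53 in MCS cells. KIF4A, KIF20A and DLGAP5, with roles at chromosome arms, the midzone and spindle fibres, had differences of -0.13, 0.082 and 0.058.

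Among the 5 genes of the midzone, cytokinesis and chromosome structure, ANLN separated the groups. ANLN, the anillin of the contractile ring, was at 9.03, 9.04 and 9.20 in RUNX1 cells, against 8.59, 8.92 and 8.83 in MCS cells. The difference was 0.31 (standard error 0.14), a fold of 1.24 with an interval of 0.988 to 1.56, and its adjusted p was 1.00 from limma. MCS replicate 1 was the lowest array, and the difference without it was 0.22. TOP2A, the topoisomerase that disentangles chromosomes, was at 12.98, 12.89 and 12.52 in RUNX1 cells, against 12.84, 12.43 and 12.62 in MCS cells, and its difference was 0.30 without RUNX1 replicate 3 and 0.064 without MCS replicate 2. PRC1, which bundles midzone microtubules, was at 13.14, 13.21 and 13.12 in RUNX1 cells, against 13.17, 13.11 and 13.06 in MCS cells, and its range over 6 arrays, 0.15, was the smallest of the 42. KIF23 and ECT2, which position the cleavage furrow, had differences of -0.050 and 0.020.

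**Figure D4:**
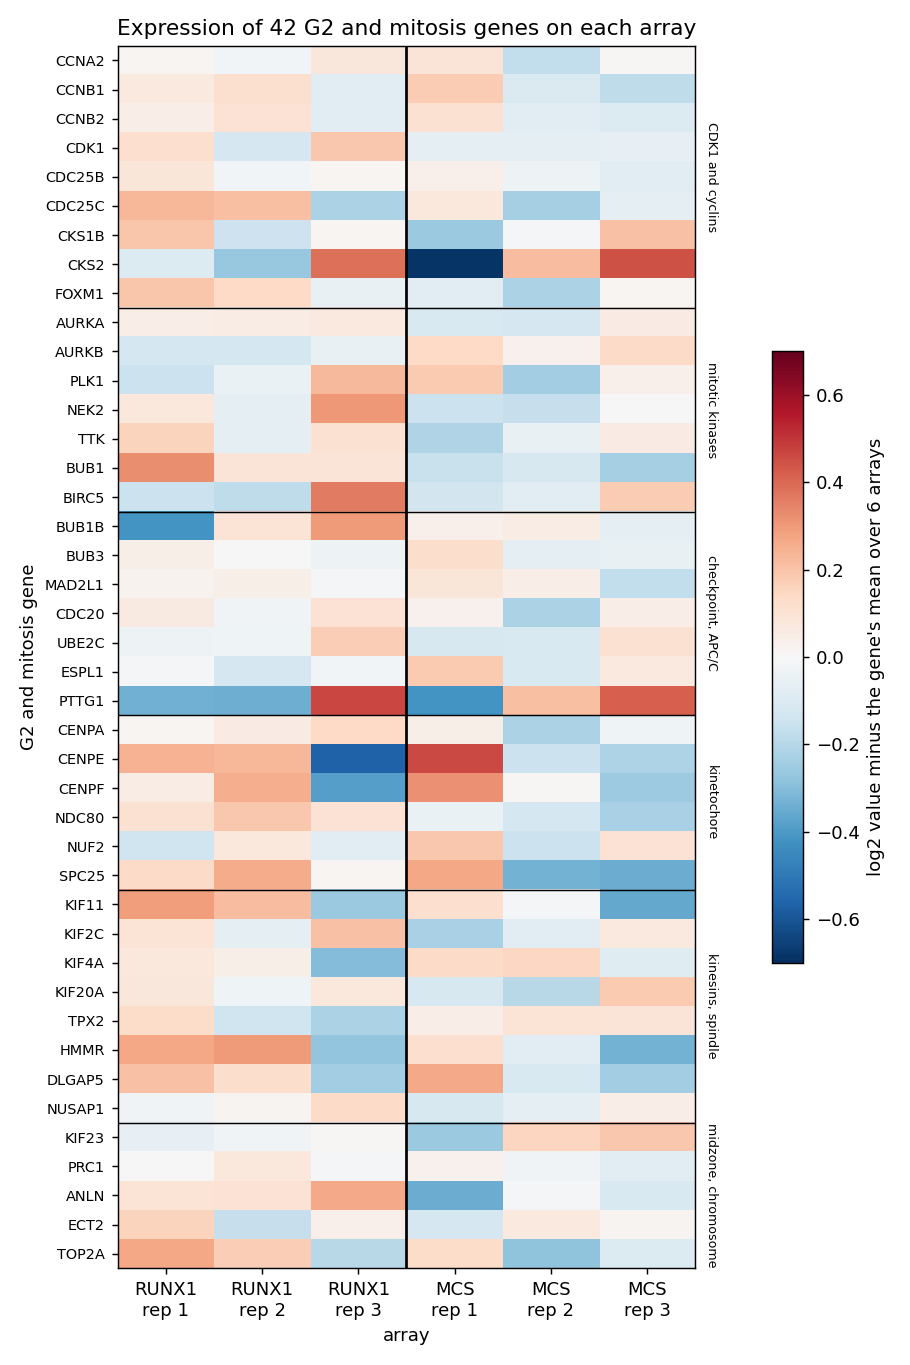
Log2 value of each of the 42 genes on each array minus the mean of the gene over 6 arrays (blue below, red above), grouped by role, with RUNX1 arrays left of the vertical line and MCS arrays right of it. No block of genes is red on all RUNX1 arrays and blue on all MCS arrays; CKS2 and PTTG1 are high where CENPE, HMMR and KIF11 are low.

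The arrays on which a member was high were set beside those of all genes. The 3 arrays with the highest values were RUNX1 replicates 1 and 2 and MCS replicate 1 for 12 of 42 members (28.6%), CCNB1, CCNB2, CDC25C, BUB3, CENPE, CENPF, SPC25, KIF11, HMMR, DLGAP5, PRC1 and TOP2A, beside 26.3% of all genes. They were the other 3 arrays for CKS2, BIRC5, PTTG1 and KIF23 (9.52%), beside 18.2% of all genes. These are the sides of the first principal component, over all genes. A further 7 members (16.7%), CDK1, CKS1B, NEK2, TTK, CDC20, KIF2C and KIF20A, were highest on RUNX1 replicates 1 and 3 and MCS replicate 3, beside 3.49% of all genes. This set of arrays was singled out after the counts were seen. MCS replicate 2 was the lowest array for 12 members, and 10 of 42 members were above their own mean on it (23.8%), beside 46.9% of all genes. RUNX1 replicate 1, by contrast, had 31 members above their mean (73.8%), beside 55.6% of all genes. Over the 861 pairs of members, the median Pearson correlation of the values after removal of group means was 0.057 on 6 arrays, which share their normalization, and 53.0% of pairs were above 0.

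The probes of a gene did not always give the same direction. Of 21 members with more than 1 detected probe, 12 had the same sign on all of them and 9 did not, namely CDK1, CDC25C, FOXM1, CKS2, BUB3, MAD2L1, CENPE, NUF2 and NUSAP1. In CENPE the brightest probe had a difference of -0.063 and the other 0.18, and in CDK1 they had 0.13 and -0.085. Other differences lay near 0, with BUB3 at -0.0018, -0.00064 and 0.019 and MAD2L1 at 0.032 and -0.030. How often probes differ in sign over all genes was not computed. The probes of a gene can be designed on different transcripts, and their places in the transcripts were not compared here.

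**Figure D5:**
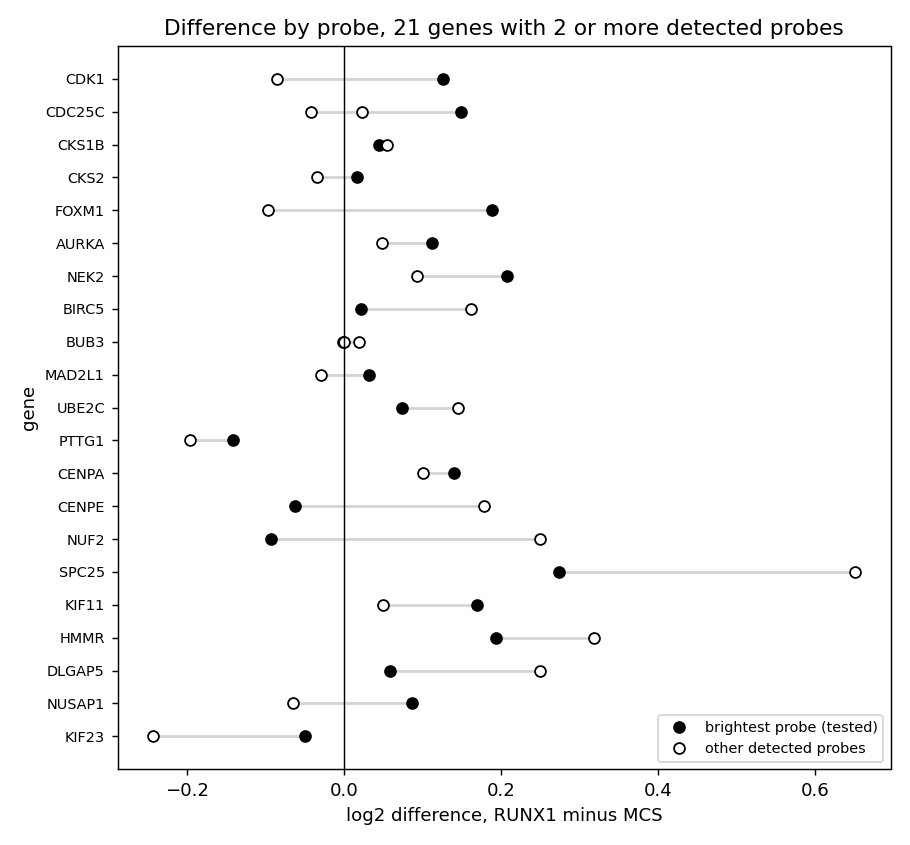
Log2 difference, RUNX1 minus MCS, of each detected probe of the 21 genes with more than 1 (filled, the brightest probe, which was tested; open, the others). The points of 9 genes lie on both sides of 0. The widest gap is that of SPC25, at 0.27 and 0.65, the latter from a dim probe detected on 1 MCS array.

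In the rest of the pathway no gene was called either. Of 148 further symbols for G2 and mitosis in 6 lists (other CDK1 regulators and transcription factors, kinases and passenger proteins, kinetochore genes, the anaphase-promoting complex, kinesins, and condensin, cohesin and cytokinesis genes), 139 had a probe and 127 were tested. Of these 0 were higher and 0 lower at an adjusted p under 0.05 from limma, beside 0% of all genes. At an unadjusted p under 0.05 from limma there were 2 of the 127, beside 2.26% of all genes. The groups did not overlap for 8 (6.30%), beside 6.56% of all genes. The median difference was 0.0051, beside 0.021 for all genes.

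The 4 with the smallest p-values were SPAG5, DEPDC1, CDCA2 and BIRC6. SPAG5, the spindle protein astrin, was at 7.37, 7.41 and 7.25 in RUNX1 cells, against 6.95, 6.86 and 6.99 in MCS cells. Each RUNX1 array was above each MCS array, with a difference of 0.41 (standard error 0.12), an unadjusted p of 0.0106 and an adjusted p of 1.00 from limma. With array weights, the fit that called 8.06% of all genes, SPAG5 was at 0.50 with an adjusted p of 0.0447 from limma. DEPDC1, named for its DEP domain, was at 9.48, 9.19 and 9.19 in RUNX1 cells, against 8.87, 8.92 and 9.05 in MCS cells, also without overlap. CDCA2, which recruits a phosphatase to anaphase chromosomes, was at 8.45, 8.38 and 8.34 in RUNX1 cells, against 8.09, 8.03 and 8.33 in MCS cells, without overlap but with RUNX1 replicate 3 barely above MCS replicate 3. BIRC6, which acts in the last step of cytokinesis, overlapped, with a difference of 0.32 (standard error 0.18).

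The genes of DNA replication and S phase, the preceding stage of the cycle, were set beside them. Of 52 with a probe, 48 were tested, and 0 were higher and 0 lower at an adjusted p under 0.05 from limma. Their differences were above 0 for 14 and below 0 for 34, with a median of -0.050, whereas those of the 42 G2 and mitosis genes were above 0 for 31 and below 0 for 11, with a median of 0.054. The sign of either median was the same under each of the 20 alternatives, taken relative to all genes where arrays were not normalized. Some of these alternatives changed only the test and could not move a median. All reuse the same arrays and are not separate support for a tilt. Per array, the median deviation of the 42 from their gene means was 0.069, 0.031 and 0.014 with RUNX1. With MCS it was 0.037, -0.078 and -0.014. For the S phase genes it was -0.018, -0.00044 and -0.043 with RUNX1, against 0.027, 0.057 and -0.0042 with MCS. The groups thus overlapped for both lists, which were chosen with earlier results of these data known. The 127 further G2 and mitosis genes did not share the tilt of the 42. They were above 0 for 69 and below 0 for 58, with a median of 0.0051, beside 44.6% of all genes below 0. The difference between the lists was not tested.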

How the data were processed

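Probe intensities were deposited by the authors as non-normalized signals with a detection p-value per array against negative control probes, made per the methods with BeadStudio 3.1. The authors also deposited processed log2 values, made with lumi and sharing 1 distribution over the 6 arrays, which were used as an alternative. Intensities were background-corrected and quantile-normalized (neqc, offset 16, limma 3.58.1 in R 4.3.3). Probes detected at p under 0.05 on at least 3 arrays were kept, with the brightest probe per gene. Of 47231 probes, 30113 had 1 gene symbol, 8 several and 17110 none. RUNX1 and MCS arrays were compared with lmFit and eBayes over 11129 genes with Benjamini-Hochberg adjustment at 0.05. The test was checked on simulated data with independent noise of equal spread for every gene. Such data do not show what size of difference the test could find on these arrays. Members and gene lists were chosen with earlier results of these data known.

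Genes named with full values were those with the 3 smallest p-values in each role class and those whose probes differed in sign, with PTTG1 added after its values were seen. The 4 further pathway genes had the smallest p-values. Alternatives changed the background correction, normalization, filter, probe rule and test, or left out an array. The arrays were replicates 1 to 3 of each group, and p-values measure the spread between these arrays, whose number limits the precision. Replicate numbers were not used to pair the arrays in the main fit, and the labels do not say whether they pair them.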

Additional observations from a re-analysis of the deposited data

How the results depend on the processing

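Under 20 alternatives to the processing, 0 members were lower and, in 19 of them, 0 were higher at an adjusted p under 0.05. With array weights there was 1, SPC25, among 897 genes called, and the median difference of the members was 0.10; the cause was not tested. The median was 0.045 to 0.097 when single arrays were left out, with 0 members higher and 0 lower. With the replicate number as a block there were also 0 and 0, and no call changed. The block, the t-test and a fit with a variance trend leave each difference unchanged by construction. They could therefore move neither a sign nor the median of 0.054. Deviations of arrays with the same number correlated at 0.57, -0.35 and 0.70, and 2 of 3 RUNX1 arrays and 1 of 3 MCS arrays correlated best with their own number.

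The sign was kept by 25 of 42 members under all 20 alternatives, including those that could not move it. It reversed without normalization, relative to all genes, for PLK1 (-0.038), BUB3 (0.028) and ECT2 (-0.027). It reversed with median scaling for CCNB1 (-0.0095), CDC25B (-0.027), PLK1 (-0.089), BIRC5 (-0.012), BUB3 (0.065) and ECT2 (-0.064). The authors' processed values gave BUB3 0.00013. The mean of probes gave CKS2 -0.0088, BUB3 0.0055, CENPE 0.057 and NUF2 0.078. Array weights gave CKS1B -0.023, CKS2 -0.36, BIRC5 -0.087, BUB3 0.063, CENPE 0.31, CENPF 0.15, NUF2 0.087 and ECT2 -0.090.

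Leaving out single arrays gave -0.025 to 0.10 for CCNA2, -0.0052 to 0.17 for CCNB1, -0.075 to 0.16 for CKS1B, -0.33 to 0.24 for CKS2 and -0.099 to 0.11 for PLK1. It gave -0.15 to 0.12 for BIRC5, -0.17 to 0.19 for BUB1B, -0.038 to 0.059 for BUB3, -0.048 to 0.077 for MAD2L1 and -0.41 to 0.035 for PTTG1. It gave -0.20 to 0.20 for CENPE, -0.19 to 0.13 for CENPF, -0.050 to 0.20 for DLGAP5, -0.19 to 0.033 for KIF23 and -0.053 to 0.11 for ECT2. BUB1 was at 0.26 to 0.38, NDC80 at 0.22 to 0.30, ANLN at 0.22 to 0.38 and AURKB at -0.24 to -0.18. Of the 27 members that kept their sign whichever array was left out, the 23 besides these 4 moved by over 1.5 times. The groups of BUB1, NDC80, ANLN and AURKB did not overlap, so leaving out a single array could hardly reverse their signs. Their narrower ranges come from the same values as that separation and are not separate evidence of a difference.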
